A study of Homo sapiens with 6 samples.

Results

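The 38 genes described here encode the enzymes that make, interconvert and salvage purine and pyrimidine nucleotides, and they were chosen by name. All 38 matched 1 row each of a deposited table of 61533 gene rows, and 37 passed the filter on low counts. They were measured by RNA sequencing in MDA-MB-231, a widely used human cell line of triple-negative breast cancer with mesenchymal traits. The compared groups were cells carrying shKDM2B, a short hairpin RNA that knocks down the histone demethylase KDM2B (3 libraries), and cells carrying an empty vector, whose genotype is labelled WT (3 libraries). Both groups grew in the same medium, with glutamine, nonessential amino acids and serum. RNA was taken at subconfluence and ribosomal RNA was removed before library preparation. One hairpin code is visible in the column names, and the labels do not say whether a group was a clone or a pool of cells, nor whether replicates were separate cultures. The p-values therefore weigh a difference only against how far these libraries spread, and that spread may be technical.

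Cells build purines stepwise on phosphoribosyl pyrophosphate (PRPP), ending in inosine monophosphate (IMP), from which AMP and GMP branch off. The pyrimidine ring is built first and then joined to PRPP to give UMP, from which CTP is made. Ribonucleotide reductase turns ribonucleotides into deoxynucleotides for DNA, and salvage kinases and phosphoribosyltransferases reuse bases and nucleosides. Proliferating tumor cells rely on these routes, several of whose genes are textbook targets of MYC, and the title of the series names KDM2B, MYC and ATF4 as regulators of amino acid metabolism, which supplies atoms to both rings.

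Nucleotide synthesis genes were mostly lower after KDM2B knockdown. Of the 37 tested members, 27 fell, 5 rose and 5 did not pass an adjusted p of 0.05. Without shKDM2B replicate 1 or without empty vector replicate 3, the number that rose was 3. Across all 14071 genes tested, 30.4% fell and 30.5% rose, so 60.9% were called in all. The members' median log2 fold change was -0.30, against -0.01 over all tested genes, where the lower quartile was -0.36. The shKDM2B and empty vector libraries did not overlap for 27 lower and 7 higher members, against 32.5% lower and 33.0% higher (65.5% together) of all tested genes. All fold changes are shKDM2B over empty vector, tested with edgeR's quasi-likelihood test with Benjamini-Hochberg adjustment over all genes, and levels in CPM (read counts scaled to library size) are given as mean ± SD of 3 libraries.

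**Figure D1:**
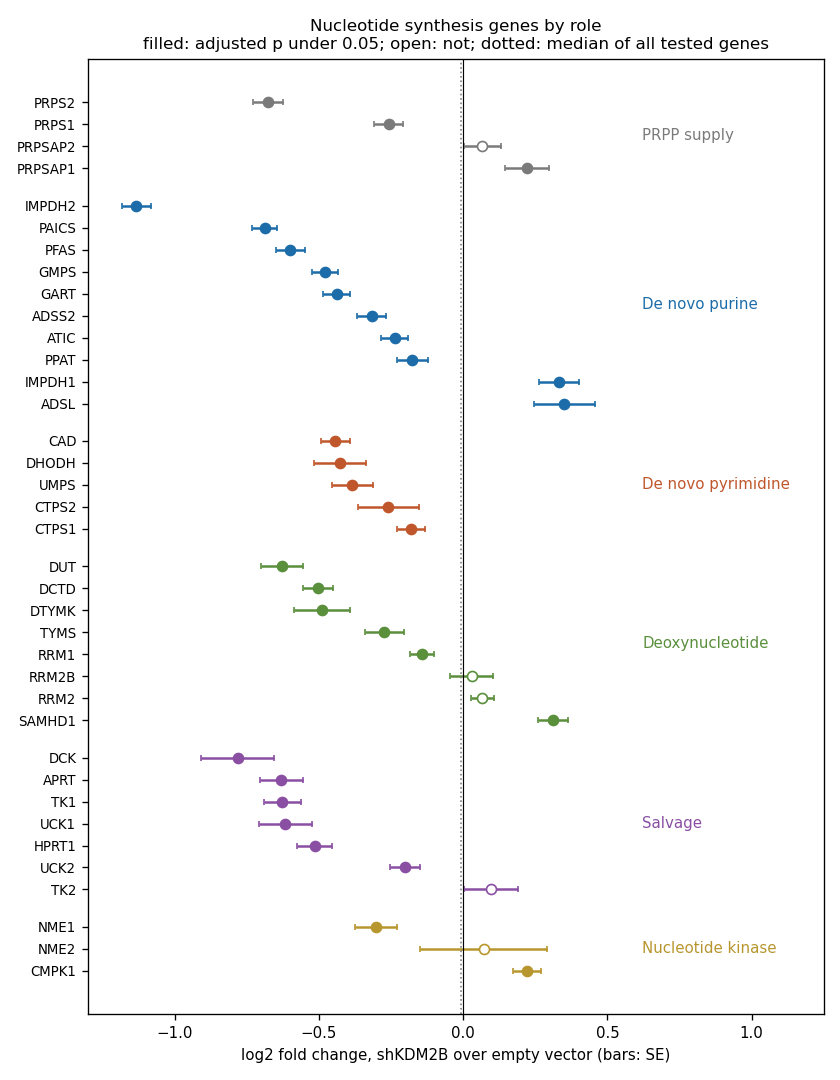
Log2 fold change of the 37 tested nucleotide synthesis genes (x axis, shKDM2B over empty vector, bars are SE), grouped by role on the y axis. Filled points passed an adjusted p of 0.05 and open points did not. IMPDH2 lay furthest left at -1.13, all 5 de novo pyrimidine genes lay left of 0, and IMPDH1, ADSL, SAMHD1, CMPK1 and PRPSAP1 were the 5 that rose.

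Libraries of a group were not evenly placed across the members. Among the 3 shKDM2B libraries, replicate 3 was the highest for 22 of 37 members and replicate 1 the lowest for 19. Among the 3 empty vector libraries, replicate 2 was the highest for 25 members and replicate 1 the lowest for 17. With empty vector replicate 2 left out, 26 members fell and 5 rose, and with shKDM2B replicate 3 left out, 27 fell and 4 rose.

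The knockdown was visible in KDM2B itself, which had 14.9, 14.5 and 14.6 CPM in the shKDM2B libraries and 57.3, 68.0 and 65.3 CPM in the empty vector libraries (log2 fold change -2.12, SE 0.08, adjusted p 8.77e-11). Library totals ran from 10190149 to 15737951 counts, so that a count of 0 allows up to 0.294 CPM in the smallest library, for counting error only. The line's markers AXL, EGFR, CD44, KRT18 and VIM were present, with VIM at 405.9 ± 10.3 CPM in shKDM2B and 1299 ± 52.3 CPM in empty vector cells. The hormone receptor genes ESR1 and PGR stayed under 0.2 CPM on average in both groups, and ERBB2 was at 62.5 ± 3.80 CPM in shKDM2B and 63.7 ± 8.34 CPM in empty vector cells. Summed over 6 leukocyte and blood markers, levels were 0.876 to 1.43 CPM in shKDM2B and 0.286 to 1.26 CPM in empty vector libraries, with CD3E and LYZ at 0 in all 6. The 5 fibroblast and 4 endothelial markers summed to at most 0.613 and 1.75 CPM in any library. Mitochondrially encoded genes took 0.196 to 0.476% of counts in shKDM2B and 0.0767 to 0.151% in empty vector libraries, and MALAT1 took 0.246 to 0.311% in shKDM2B and 0.0958 to 0.107% in empty vector libraries. Whether this shift in RNA composition has a part in the members' changes was not tested.

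Because many members fell together and the series concerns MYC, the start regions of the members were searched for the E-box CACGTG, the core sequence that MYC and MAX bind. RefSeq windows (GRCh38.p14) from 250 bases before to 50 after each annotated start were held for 35 members, all but ADSL, IMPDH2 and RRM2B. PPAT and PAICS, which encode the first committed enzyme of purine synthesis and a later bifunctional enzyme, start 137 bases apart and run in opposite directions on chromosome 4. Their windows share 236 bases and 1 E-box. The PPAT window, on the minus strand at chr4:56435566-56435865, is shown with the E-box in capitals:
PPAT: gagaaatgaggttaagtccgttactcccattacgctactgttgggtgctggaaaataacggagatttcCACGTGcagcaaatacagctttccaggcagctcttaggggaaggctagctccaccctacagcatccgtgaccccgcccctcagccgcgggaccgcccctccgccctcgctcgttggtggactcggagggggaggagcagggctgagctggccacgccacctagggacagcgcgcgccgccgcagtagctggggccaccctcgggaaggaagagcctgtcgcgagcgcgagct

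The other members with the E-box were ATIC, DHODH, DCK and NME1, and 30 bases around the first one in each window are shown so that the flanking letters can be compared, with the E-box in capitals:
ATIC (chr2:215312001-215312030, plus strand): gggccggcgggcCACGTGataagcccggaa
DHODH (chr16:72008573-72008602, plus strand): gccgctactgcgCACGTGcacccaaccaga
DCK (chr4:70993521-70993550, plus strand): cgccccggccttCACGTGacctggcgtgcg
NME1 (chr17:51153579-51153608, plus strand): caagtgctgcgaacCACGTGggtcccgggc

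ATIC holds a second E-box in its window. All 6 members with an E-box fell, at log2 fold changes from -0.18 (PPAT) to -0.78 (DCK), but 26 of the 35 members with a window fell. How many of all tested genes with an E-box fell was not counted. The E-box was found for 17.1% of the 35 members (6 genes), for 12.4% of 10410 tested genes and for 8.78% of 27305 genes with a window. PPAT and PAICS are both counted there for the 1 E-box they share. Counted per window, since a gene can have several, the E-box was in 10.7% of 56 member windows. It was in 9.19% of 15198 windows of tested genes and 7.26% of all 35116 windows. The motif TGATGNAA, a core of ATF4 response elements, was found on either strand for 1 member (DCTD), or 2.86%, against 2.74% of tested genes and 4.46% of all genes. The E2F-like motif TTTNNCGC was found on either strand for 6 members, or 17.1%, against 12.9% of tested genes and 8.23% of all genes. Per window it was in 12.5% of member windows and 9.61% of windows of tested genes. DCTD and all 6 members with the E2F-like motif also fell, again beside 26 of the 35 members with a window. For these motifs too, the share that fell among all tested genes was not counted. KDM2B binds unmethylated CpG sites through its zinc finger, and the member windows held a median of 26 CpG sites, against 25 in windows of tested genes and 14 in all windows. These matches describe letters in the windows, not binding.

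De novo purine synthesis showed the largest single change and both directions. Of 11 members, 10 were tested, of which 8 fell and 2 rose, and their log2 fold changes had a median of -0.38. IMPDH2 (ENSG00000178035.13, chromosome 3 from 49024325 to 49029408, minus strand) encodes the main IMP dehydrogenase of proliferating cells, the rate-limiting step toward GMP. It had 161, 166 and 172 CPM in shKDM2B libraries and 363, 378 and 355 CPM in empty vector libraries. The groups lay far apart, a 2.19-fold decrease (log2 fold change -1.13, SE 0.05, adjusted p 2.23e-10). Its paralog IMPDH1 (ENSG00000106348.18, chromosome 7 from 128392277 to 128410252, minus strand) catalyzes the same reaction and went the other way. IMPDH1 had 98.2, 95.4 and 105 CPM in shKDM2B libraries and 72.9, 87.9 and 76.9 CPM in empty vector libraries (log2 fold change 0.33, SE 0.07, adjusted p 7.6e-04). Every shKDM2B library was above every empty vector library. The gene name table lists 10 IMPDH1 pseudogenes, so its counts are uncertain where reads match several copies. Per exon length, IMPDH2 held 68.8 ± 0.779% of the pair's summed level in shKDM2B cells and 85.9 ± 0.884% in empty vector cells.

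The early and middle steps of the purine ring fell by unequal amounts. PAICS (ENSG00000128050.9, chromosome 4 from 56435741 to 56464579, plus strand), which adds carbon dioxide and aspartate to the growing ring, had 480.2, 492 and 495 CPM in shKDM2B libraries and 754, 829.8 and 779 CPM in empty vector libraries. That was a 1.61-fold decrease (log2 fold change -0.69, SE 0.04, adjusted p 1.02e-08). PAICS has 7 named pseudogenes, so its counts are also uncertain where reads match several copies. PFAS, which adds a nitrogen from glutamine, had 127, 125 and 135 CPM in shKDM2B libraries and 193, 198 and 195 CPM in empty vector libraries (log2 fold change -0.60, SE 0.05). For both genes the libraries of a group lay close together and the groups did not overlap. PPAT, the amidotransferase that commits PRPP to purines and starts beside PAICS, fell by less, to 121 ± 0.703 CPM in shKDM2B cells against 136.1 ± 7.83 CPM in empty vector cells (log2 fold change -0.18, SE 0.05, adjusted p 0.0121). GART, which carries out several steps of the ring, and GMPS, which makes GMP, had log2 fold changes of -0.44 and -0.48. ATIC, which closes the ring to IMP, was at -0.24.

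On the AMP branch, ADSS2, the adenylosuccinate synthase of most tissues, had 91.6, 89.0 and 88.4 CPM in shKDM2B libraries and 112, 114 and 108 CPM in empty vector libraries (log2 fold change -0.32, SE 0.05, adjusted p 9.3e-05). ADSS1, the muscle isoenzyme, was the member that did not pass the filter, with 5, 2 and 5 counts in shKDM2B libraries and 2, 3 and 4 counts in empty vector libraries. ADSL, which acts both in the ring and on the AMP branch, rose. It had 21.1, 20.1 and 18.2 CPM in shKDM2B libraries and 16, 17.0 and 13.5 CPM in empty vector libraries (log2 fold change 0.35, SE 0.11, adjusted p 0.0111). The groups lay only slightly apart, and the call was lost without shKDM2B replicate 1 (adjusted p 0.0521) or without empty vector replicate 3 (adjusted p 0.0775). In GENCODE release 29, 18.9% of the exon bases of ADSL also belong to another gene on the same strand, and whether such reads were counted or dropped is unknown here, so its level is uncertain.

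PRPP supply split between the synthetases and their associated proteins. PRPS2, 1 of the PRPP synthetases, had 62.5, 65.5 and 62.2 CPM in shKDM2B libraries and 99.2, 105 and 100.1 CPM in empty vector libraries (log2 fold change -0.68, SE 0.05, adjusted p 7.18e-08). PRPS1, its near relative, had 78.1, 79.3 and 81.6 CPM in shKDM2B libraries and 93.0, 97.2 and 95.7 CPM in empty vector libraries (log2 fold change -0.26, SE 0.05, adjusted p 5.15e-04). Both synthetases fell without overlap of the groups. PRPSAP1 and PRPSAP2 encode proteins that bind the synthetases and restrain them. PRPSAP1 had 57.8, 58.6 and 57.6 CPM in shKDM2B libraries and 43.9, 55.4 and 49.8 CPM in empty vector libraries (log2 fold change 0.22, SE 0.08, adjusted p 0.0208). The empty vector libraries spread widely here, and the call was lost when any 1 library other than empty vector replicate 2 was left out (adjusted p up to 0.134). PRPSAP2 had 45.4, 47.0 and 45.5 CPM in shKDM2B libraries and 42.2, 45.2 and 44.2 CPM in empty vector libraries, with a log2 fold change of 0.07 and an adjusted p of 0.379.

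De novo pyrimidine synthesis was lower at every step measured, with 5 of 5 members called lower and a median of -0.38 on the log2 scale. CAD, the fused enzyme that starts the pathway and a long-known MYC target, had 389, 394 and 418 CPM in shKDM2B libraries and 526, 582 and 525 CPM in empty vector libraries (log2 fold change -0.44, SE 0.05, adjusted p 3.88e-06). DHODH, the mitochondrial enzyme of the pathway and a drug target, had 13.8, 14.8 and 13.9 CPM in shKDM2B libraries and 19.0, 18.5 and 19.6 CPM in empty vector libraries (log2 fold change -0.43, SE 0.09). UMPS, which makes UMP, had 70.8, 73.0 and 79.3 CPM in shKDM2B libraries and 91.5, 109 and 92.1 CPM in empty vector libraries (log2 fold change -0.38, SE 0.07). These 3 enzymes, which together make UMP, fell by similar amounts and none of their groups overlapped. The CTP synthases, which amidate UTP, fell by less. CTPS1 had 188, 179 and 177 CPM in shKDM2B libraries and 203, 211 and 202 CPM in empty vector libraries (log2 fold change -0.18, SE 0.05, adjusted p 0.00564). CTPS2 had 12, 10.9 and 12.9 CPM in shKDM2B libraries and 13.7, 15.1 and 14.1 CPM in empty vector libraries. Its adjusted p of 0.0479 lay at the threshold and was 0.138 with DESeq2 and 0.18 without shKDM2B replicate 2. It also missed the threshold with no filter on low counts (0.0574) and without shKDM2B replicate 1 (0.0995), empty vector replicate 2 (0.0852) or empty vector replicate 3 (0.0775).

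**Figure D2:**
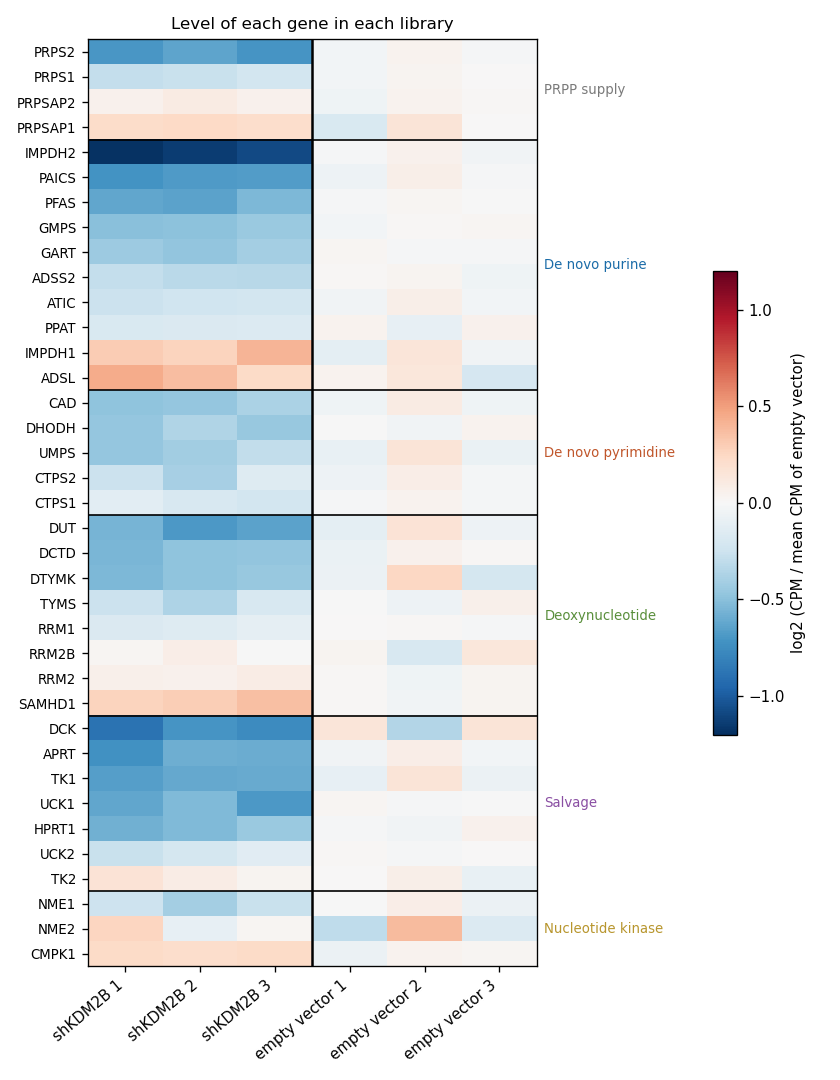
Level of each tested gene (rows, grouped by role) in each of the 6 libraries (columns), as log2 of its CPM over the mean CPM of the empty vector libraries, from blue (lower) to red (higher). The 3 shKDM2B columns resemble each other in most rows, and empty vector replicate 2 was the highest of its group in 25 rows and the lowest in 10, with its widest departures in rows such as DCK, DTYMK and NME2.

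Deoxynucleotide enzymes were lower around thymidylate, while the ribonucleotide reductase genes had smaller changes or none that passed the test. Of 8 members, 5 fell, 1 rose and 2 were not called, and the median log2 fold change was -0.21. DUT, which hydrolyzes dUTP and keeps uracil out of DNA, had 56.0, 51.2 and 52.8 CPM in shKDM2B libraries and 75.8, 92.2 and 79.2 CPM in empty vector libraries (log2 fold change -0.63, SE 0.07, adjusted p 4.07e-06). DCTD, which deaminates dCMP to the substrate of thymidylate synthase, had 147, 154 and 155 CPM in shKDM2B libraries and 205, 224 and 218 CPM in empty vector libraries (log2 fold change -0.50, SE 0.05). DTYMK, the thymidylate kinase, had 101, 104 and 106 CPM in shKDM2B libraries and 139, 173 and 126 CPM in empty vector libraries (log2 fold change -0.49, SE 0.10). In each of the 3 the groups were apart, with empty vector replicate 2 the highest library. TYMS, thymidylate synthase itself, had a log2 fold change of -0.27 (SE 0.07, adjusted p 0.00273). Of its exon bases, 46.6% also belong to genes on the opposite strand, so its reads cannot be told from theirs if strand was not used. DUT has 8 named pseudogenes, and 14.5% of its exon bases also belong to a gene on the opposite strand.

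Ribonucleotide reductase makes deoxynucleotides. Per exon length, its subunit RRM2 was at 131 ± 1.92 RPKM (CPM per kilobase of exon) in shKDM2B cells, the highest mean of all members there, and at 125 ± 4.13 RPKM in empty vector cells, second to IMPDH2, which was at 60.1 ± 2.08 RPKM in shKDM2B cells and 132 ± 4.09 RPKM in empty vector cells. RRM2, the small subunit whose protein is made in S phase, had 691, 688 and 707 CPM in shKDM2B libraries and 672, 639 and 681 CPM in empty vector libraries. All shKDM2B libraries were above all empty vector libraries, but the change was not called (log2 fold change 0.07, SE 0.04, adjusted p 0.171). Of its exon bases, 20.2% also belong to another gene on the same strand, and it has 3 named pseudogenes. RRM2B, the small subunit used outside S phase, had 57.9, 60.2 and 56.8 CPM in shKDM2B libraries and 58.2, 49.9 and 62.7 CPM in empty vector libraries, with overlapping groups (log2 fold change 0.03, SE 0.08, adjusted p 0.76). RRM1, the large subunit, fell slightly (log2 fold change -0.14, SE 0.04, adjusted p 0.0103), a call lost without shKDM2B replicate 1 (adjusted p 0.0637) or replicate 2 (adjusted p 0.0582). SAMHD1 (ENSG00000101347.11, chromosome 20 from 36889773 to 36951901, minus strand), which degrades deoxynucleoside triphosphates, rose. It had 136, 139.5 and 146 CPM in shKDM2B libraries and 114, 109.8 and 116 CPM in empty vector libraries (log2 fold change 0.31, SE 0.05, adjusted p 1.32e-04), with a clear gap between the groups. Of the exon bases of SAMHD1, 10.3% also belong to a gene on the opposite strand.

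The 7 salvage members had the lowest median of the roles, -0.62, with 6 of 7 lower and 1 not called. Further salvage genes outside these 7 went both ways. DGUOK (-0.46) and UCKL1 (-0.55) fell, ADK rose (0.22), and UPRT, UPP1 and CDA were not called. The median thus holds for the listed members, not for salvage as a whole. DCK, which phosphorylates deoxycytidine and activates nucleoside drugs such as gemcitabine and cytarabine, had 45.3, 51.1 and 49.8 CPM in shKDM2B libraries and 92.6, 65.6 and 92.9 CPM in empty vector libraries. The groups did not overlap although empty vector replicate 2 lay below its group (log2 fold change -0.78, SE 0.13, adjusted p 5.71e-04). Of the exon bases of DCK, 6.17% also belong to another gene, MOB1B, on the same strand. APRT, which salvages adenine, had 26.4, 29.2 and 29 CPM in shKDM2B libraries and 42.5, 46.2 and 42.8 CPM in empty vector libraries (log2 fold change -0.63, SE 0.07, adjusted p 4.89e-06). HPRT1, which salvages hypoxanthine and guanine and has 3 named pseudogenes, was at 49.3 ± 2.45 CPM in shKDM2B and 70.5 ± 2.17 CPM in empty vector cells (log2 fold change -0.51, SE 0.06). Both purine phosphoribosyltransferases, which use PRPP, were thus lower.

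The thymidine and uridine kinases showed how isoenzymes differed. TK1, the cytosolic thymidine kinase of cycling cells, had 123, 126 and 127 CPM in shKDM2B libraries and 181, 216 and 184 CPM in empty vector libraries (log2 fold change -0.63, SE 0.07, adjusted p 1.39e-06). TK2, the mitochondrial thymidine kinase, had 17.6, 16.6 and 16 CPM in shKDM2B libraries and 15.8, 16.5 and 14.8 CPM in empty vector libraries, with overlapping groups (log2 fold change 0.10, SE 0.09, adjusted p 0.4). The TK1 libraries were thus apart and the TK2 libraries were mixed. Of the exon bases of TK2, 25.0% also belong to other genes on either strand and 3.15% to genes on its own strand, so its level is uncertain. UCK1 had 13.4, 14.4 and 12.9 CPM in shKDM2B libraries and 21.0, 20.5 and 20.7 CPM in empty vector libraries (log2 fold change -0.62, SE 0.09). UCK2, the more abundant uridine-cytidine kinase here, had 139, 144 and 152 CPM in shKDM2B libraries and 168, 165 and 167 CPM in empty vector libraries (log2 fold change -0.20, SE 0.05, adjusted p 0.00352).

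The kinases that act after synthesis and salvage went both ways. CMPK1, which phosphorylates UMP and CMP, rose, with 285, 281 and 286 CPM in shKDM2B libraries and 231, 251 and 248 CPM in empty vector libraries (log2 fold change 0.22, SE 0.05, adjusted p 0.00121). NME1, a nucleoside diphosphate kinase first known as a metastasis suppressor, had 38, 34.2 and 37.6 CPM in shKDM2B libraries and 45.0, 47.7 and 42.9 CPM in empty vector libraries (log2 fold change -0.30, SE 0.07, adjusted p 0.00234). Its neighbor NME2 had 3.60, 2.80 and 3.06 CPM in shKDM2B libraries and 2.43, 3.90 and 2.68 CPM in empty vector libraries, with mixed groups (log2 fold change 0.07, SE 0.22, adjusted p 0.797). Of the exon bases of NME1 and NME2, 18.6% and 22.9% are shared with the readthrough gene NME1-NME2, and how reads in shared exons were assigned, or whether they were dropped, is unknown here. The low level of NME2 and the NME1 to NME2 ratio are therefore uncertain. With the 3 rows summed, an alternative chosen after seeing the data that would not recover dropped reads, the log2 fold change was -0.26 (adjusted p 0.00698).

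Ratios between paired genes were compared per library over 9 pairs. The log2 ratio of IMPDH2 to IMPDH1 was 0.74 ± 0.05 in shKDM2B libraries and 2.21 ± 0.11 in empty vector libraries, a difference of -1.47. TK1 to TK2 differed by -0.72, PRPS1 to PRPS2 by 0.42, UCK2 to UCK1 by 0.41 and PRPSAP1 to PRPSAP2 by 0.16, each without overlap between the groups. For these 5 pairs the exact two-sided permutation p was 0.1, the smallest that 3 against 3 libraries can give, and 0.18 after adjustment over the 9 pairs, so no pair could pass 0.05. CTPS1 to CTPS2 (0.09), RRM2 to RRM2B (0.03) and NME1 to NME2 (-0.39) had overlapping groups, with exact permutation p of 0.4, 0.8 and 0.2. ADSS2 to ADSS1 rests on 2 to 5 counts of ADSS1 in a library and was not read.

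**Figure D3:**
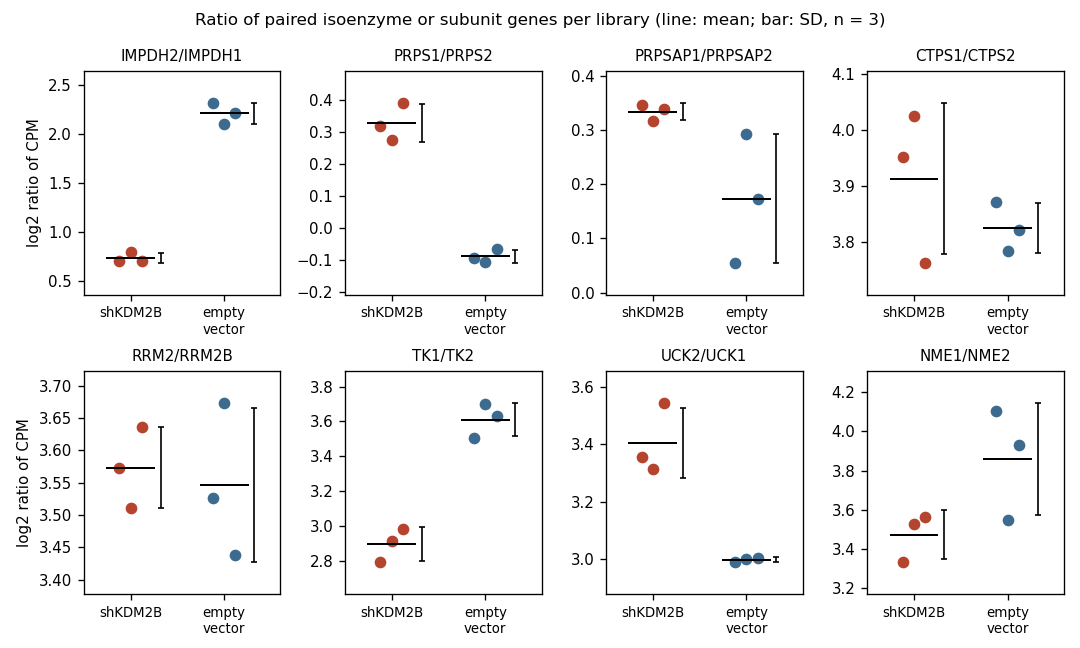
Log2 ratio of CPM for 8 pairs of related genes (panels, each with its own y axis that does not start at 0), with shKDM2B libraries in red on the left and empty vector libraries in blue on the right. Lines are means and bars are SD (n = 3). The IMPDH2 to IMPDH1 ratio was 0.71 to 0.80 in shKDM2B and 2.10 to 2.31 in empty vector libraries, while the RRM2 to RRM2B ratios overlapped.

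Summed per exon length, the roles took unequal shares of these transcripts. The de novo purine genes summed to 339, 341 and 350.4 RPKM in shKDM2B libraries and 489, 515 and 491 RPKM in empty vector libraries, a ratio of shKDM2B to empty vector of 0.689. The salvage genes summed to 151, 158 and 160.5 RPKM in shKDM2B libraries and 226, 238 and 229.9 RPKM in empty vector libraries, a ratio of 0.676. For both roles the groups were far apart. The ratio was 0.768 for de novo pyrimidine, 0.798 for PRPP supply and 0.883 for deoxynucleotide enzymes, where RRM2 and RRM1 weigh most. It was 1.10 for the nucleotide kinases, where CMPK1 held 73.8 of 85.7 RPKM in shKDM2B cells. Of the others in that role, NME1 fell and NME2 was not called. The differences between roles were not tested.

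Genes that feed or flank these pathways moved both ways, and their lists were not tested against the share over all genes. Over all tested genes, 30.4% fell and 30.5% rose. Of 18 tested further nucleotide kinases, salvage enzymes and nucleoside carriers, 7 fell (38.9%) and 3 rose, and the median log2 fold change was -0.04. Among those that fell were the nucleoside carrier SLC29A2 (log2 fold change -1.11) and the mitochondrial GTP-AMP kinase AK3 (-0.82). Of 13 tested folate one-carbon genes, which supply carbon to purines and thymidylate, 5 fell (38.5%) and 3 rose. The mitochondrial enzymes SHMT2 and MTHFD1L fell, with log2 fold changes of -0.99 and -0.98. The cytosolic MTHFD1, which makes the formyl donor of purine synthesis, rose (log2 fold change 0.20). Of 7 genes supplying ribose 5-phosphate, 3 fell (42.9%) and 1 rose, led by RPIA (-0.77), PGLS (0.54) and PGD (-0.35).

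**Figure D4:**
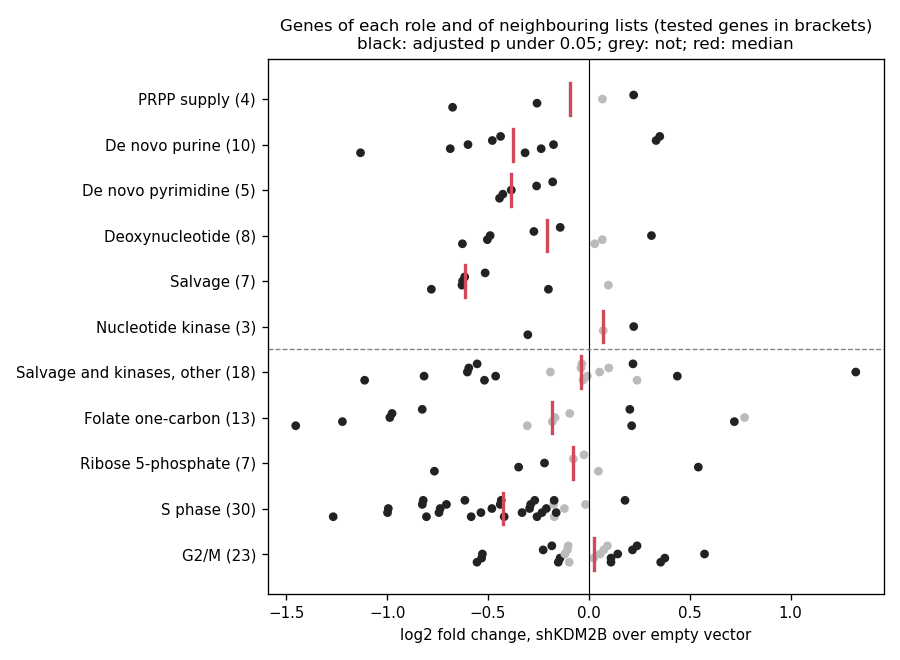
Log2 fold change (x axis, shKDM2B over empty vector) of each tested gene in the 6 roles, above the dashed line, and in 5 neighboring lists below it, with the number of genes in brackets. Black points passed an adjusted p of 0.05, grey points did not, and red lines are medians, which ran from -0.62 for salvage to 0.07 for nucleotide kinases among the roles and were -0.43 for S phase and 0.02 for G2/M genes.

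Cell cycle genes, with which TK1, TYMS and RRM2 are known to vary, mostly fell for S phase and went both ways for G2/M. Of 30 S phase genes, 25 fell (83.3%) and 1 rose, and the median log2 fold change was -0.43, led by CHAF1B (-1.27), GINS2 (-0.998) and GINS4 (-0.99). Of 23 tested G2/M genes, 7 fell and 8 rose, and the 30.4% that fell equals the share over all tested genes. Their median was 0.02, led by CDC25C (0.57), PTTG1 (-0.55) and CDC20 (-0.53). The S phase genes summed to 2845 to 2856 CPM in shKDM2B and 3595 to 3912 CPM in empty vector libraries, and the G2/M genes to 6917 to 7006 CPM in shKDM2B and 6667 to 7022 CPM in empty vector libraries. In these bulk samples, fewer cells in S phase and less RNA per cell cannot be told apart, and the part of the cell cycle in the members' changes was not tested.

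Among factors known to act on these genes, MYC had 139, 139 and 147 CPM in shKDM2B libraries and 275, 250.2 and 257 CPM in empty vector libraries (log2 fold change -0.88, SE 0.05, adjusted p 5.29e-09). ATF4, which drives amino acid and one-carbon genes, had 133, 138 and 134 CPM in shKDM2B libraries and 427, 513 and 441 CPM in empty vector libraries (log2 fold change -1.77, SE 0.07). For both, every shKDM2B library was below every empty vector library. Of the E2F factors of the G1/S transition, E2F3 fell (-0.49) and E2F1 fell slightly (-0.20), while E2F2 was at -0.20 with an adjusted p of 0.0939. MAX, the partner of MYC, was at -0.03 with an adjusted p of 0.758. The cell cycle inhibitor CDKN1A rose (1.05). The part of these factors in the members' changes was not tested.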

How the data were processed

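Read counts per gene, deposited by the authors as whole numbers with no normalization, were used for all 6 libraries. The submitters' processing notes name the build GRCh38 (hg38) and the tools STAR, Trim Galore, featureCounts, limma, edgeR and DESeq2. Tool versions, annotation release and counting options for strand and overlapping genes were not given in the sources used here. Knockdown columns name a hairpin code, not KDM2B, and were taken as shKDM2B, the only shRNA group. Identifiers were matched to symbols for 61369 rows and to GENCODE release 29 for 58356, which gave exon lengths and coordinates. Low-count genes were removed (filterByExpr, minimum count 10, minimum total 15), and the rest were scaled by TMM and tested two-sided with edgeR's robust quasi-likelihood test (edgeR 4.0.16, R 4.3.3, Benjamini-Hochberg over 14071 genes). Each SE is the absolute log2 fold change over the square root of F. RPKM was computed here as CPM per kilobase of merged exons. Pair ratios used a prior count of 2. Alternatives used DESeq2 1.42.0 and limma 3.58.1. Scripts were tested on simulated data. No library was a copy of another: pairs within a group differed by more than sampling noise (chi-square over degrees of freedom of 2 or more).

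Values in every library are given for up to 3 called members with the largest changes and a mean of at least 5 CPM in each role, for members that rose and for isoenzyme pairs. Up to 3 changed genes were named in each neighboring list, by size of change with the same minimum. A few genes outside the 38 that this rule would name are not reported here. ADSS1, PPAT, GART, GMPS, ATIC, RRM1, TYMS, HPRT1, MTHFD1, MAX, DGUOK, UCKL1, ADK, UPRT, UPP1 and CDA are described beyond that rule. Members and lists were chosen with earlier results of these data known.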

Additional observations from a re-analysis of the deposited data

How the results depend on the processing

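The counts of 27 lower and 5 higher members were 26 to 27 and 5 under other scalings, filters and tools, and 25 to 27 and 3 to 5 when 1 library was left out. The 3 came without shKDM2B replicate 1 or empty vector replicate 3. Over all genes, 3757 to 4582 fell and 3798 to 4546 rose. Of 37 members, 31 kept direction and call in every alternative, 4 lost a call in at least 1 (ADSL, CTPS2, PRPSAP1, RRM1) and 2 uncalled ones changed sign. These were NME2, from -0.054 to 0.277 with 1 library left out (-0.018 without shKDM2B replicate 1, -0.054 without empty vector replicate 1, -0.024 without empty vector replicate 3), and RRM2B, from -0.067 (without empty vector replicate 2) to 0.102. The difference in the RRM2 to RRM2B ratio ran from -0.0272 to 0.0909 and was below 0 without shKDM2B replicate 3 (-0.00426) or empty vector replicate 3. No other pair ratio changed direction. With a replicate block, 26 members fell and 5 rose, and CTPS2 was no longer called (adjusted p 0.0637). Same-numbered libraries did not deviate together (correlations 0.118, -0.0258 and 0.0751), so the numbers were not taken as pairs. Other scalings moved the median of all genes by under 0.1. Low counts limit ADSS1 and NME2.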
